A study of Homo sapiens with 8 samples.

Results

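Activator protein 1 (AP-1) is a family of transcription factors that bind DNA as pairs through a basic region next to a leucine zipper (bZIP). The Jun proteins JUN, JUNB and JUND can pair with themselves or with a Fos protein (FOS, FOSB, FOSL1 or FOSL2), and the related factors ATF3 and BATF also pair with Jun proteins. MAP kinase signals raise the synthesis or activity of many of these proteins, and their targets in epithelium include genes of growth, differentiation and matrix remodelling. The members described here were taken by gene symbol, without use of measured values, as all probes for these 9 genes. They numbered 10 of the 20589 probes on the array: 1 probe per gene, and 2 for ATF3.

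The samples were 4 of outer and 4 of inner cells from acini of MCF10A-5E, a clone of the immortalised, non-tumorigenic human breast epithelial line MCF10A. Acini are spheres that such cells form on Matrigel, a reconstituted basement membrane, and their outer layer touches this matrix while the inner cells do not. Both groups were grown alike, in medium with 2% horse serum, 0.5 µg/ml hydrocortisone, 100 ng/ml cholera toxin, 10 µg/ml insulin, 5 ng/ml epidermal growth factor (EGF) and 2% Matrigel, and both were taken at day 6. About 50 cells per sample were cut by laser microdissection from 8 µm sections, poly(A) PCR was used to amplify their RNA, and each sample was hybridised to 1 Illumina HumanRef-8 v2.0 array. The results come from 1 clone, and no label ties a sample to a culture or an acinus of its own, while the series describes a quadruplicate amplification. What the p-values measure is thus the spread among these 8 samples, and part or all of it may be technical.

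Of the 12 breast epithelium markers examined, 10 were above background on all 8 arrays, including KRT5, KRT14 and TP63, and KRT6A and CDH1 were above background on none. All 7 endothelium markers were above background on no array, with a summed intensity of 279.1 to 308.0 on outer and 253.4 to 339.4 on inner arrays. Mean intensity per array lay between 344.4 and 533.0, and did not differ between the groups beyond the spread (exact two-sided permutation test, p = 0.743). Outer arrays had 6939 ± 136 probes above background and inner arrays 7043 ± 217 (SD, n = 4 each; exact two-sided permutation test, p = 0.571). The small number of arrays limits precision.

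Sequences upstream of JUND and JUN are shown because they hold copies of elements that AP-1 and related bZIP factors are known to bind. The RefSeq promoter table (GRCh38.p14), which holds bases from 250 before to 50 after each gene start, matched 8 of the 9 members, and FOSL1 had no entry. The capitals mark TGACGTCA, the cAMP response element, upstream of JUND (chr19:18281623-18281872, minus strand) and TGACATCA, the jun promoter element, upstream of JUN (chr1:58784048-58784297, minus strand). Both are read 5′ to 3′ on the strand of the gene and end at the base before its start.
JUND: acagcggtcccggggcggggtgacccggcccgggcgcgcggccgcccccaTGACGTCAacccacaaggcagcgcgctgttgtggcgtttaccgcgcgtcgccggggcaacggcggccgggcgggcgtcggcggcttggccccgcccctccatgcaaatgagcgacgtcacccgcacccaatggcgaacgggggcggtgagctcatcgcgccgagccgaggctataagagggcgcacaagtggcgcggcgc
JUN: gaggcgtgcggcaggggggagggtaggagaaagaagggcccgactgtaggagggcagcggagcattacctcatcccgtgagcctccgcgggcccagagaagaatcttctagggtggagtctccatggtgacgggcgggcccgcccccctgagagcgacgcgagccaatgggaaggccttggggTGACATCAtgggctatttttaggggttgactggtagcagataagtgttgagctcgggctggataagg
The JUND match begins at base -200 from the start of the gene and the JUN match at base -67. Both strands were searched for 3 elements, none of which contains another. TGACGTCA was found in 1.84% of 34943 windows of 300 bases, and JUND was the 1 member with it. TGACATCA was found in 2.61% of windows, and in those of JUN and ATF3, where it begins at base -123 of the first of the 2 ATF3 starts. TGACTCA, the TPA response element that Jun-Fos pairs are best known to bind, was found in 4.96% of windows and, among members, in that of FOSL2, at base 4. These matches describe the letters of the windows and were not set against binding data.

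JUND (probe ILMN_29325; gene at chr19:18279694-18281622, GRCh38.p14, minus strand) had lower normalized intensities in outer than in inner cells, and FOSL1 (probe ILMN_2127; gene at chr11:65892049-65900545) had higher ones. Neither passed the adjusted threshold of 0.05 (limma, Benjamini-Hochberg over 7078 probes tested), which 0.0565% of those probes passed. The position of the probes within these genes was not used here. These 2 were the only member probes above background on all 8 arrays and the only ones tested, since a test required a signal above background on at least 4 arrays. The other 8 had 0 to 3 such arrays. Among all 20588 probes with beads on every array, 21.8% were above background on all 8 arrays, 15.4% on 1 to 3 and 50.2% on none. In samples of bulk RNA such as these, fewer cells expressing a gene and less RNA per cell cannot be told apart.

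Among the Jun genes, JUND is the member that many cell types express steadily and that is known to slow the growth of fibroblasts. Its deposited mean bead intensity was 4155, 3170, 2637 and 2555 on the 4 outer arrays, against 5252, 7583, 4081 and 3556 on the 4 inner arrays. Before normalization the groups overlapped, because outer replicate 1 lay above inner replicates 3 and 4. The standard error over the 43 to 63 beads of an array was 3.06% to 3.88% of the intensity, which covers bead noise on an array and not the amplification of the RNA.

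On the normalized log2 scale JUND was at 11.88, 11.71, 11.27 and 11.37 in outer cells, against 12.69, 12.62, 11.95 and 11.89 in inner cells. Every outer array then lay below every inner array, the nearest pair being outer replicate 1 at 11.88 and inner replicate 4 at 11.89. The gap within this pair was smaller than the bead standard error of JUND on either array. A separation of the groups in this direction was seen for 2.63% of the 7078 probes tested. The means were 11.56 ± 0.29 in outer and 12.29 ± 0.43 in inner cells (n = 4 each, SD), a difference of -0.73 (standard error 0.29) with a 95% interval of -1.40 to -0.06, which makes JUND 1.66-fold lower in outer cells. The unadjusted limma p was 0.0356 and the adjusted p 0.597. An unadjusted limma p below 0.05 was reached by 8.01% of all probes tested. On the authors' scaled values, the intensity divided by the array mean, JUND was at 8.57, 7.65, 5.70 and 5.98 in outer cells, against 15.2, 14.2, 9.12 and 8.68 in inner cells. These did not overlap either, with the same nearest pair and again a gap smaller than its bead error. An exact two-sided permutation test on their log2 values gave p = 0.0286, the smallest possible. The unscaled log2 intensities gave p = 0.0857 by the same exact test. Both choices of scale were made after seeing the data. The authors' deposited table gives an inner over outer ratio of 1.61 for JUND, the ratio of the medians of the 4 arrays.

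**Figure D1:**
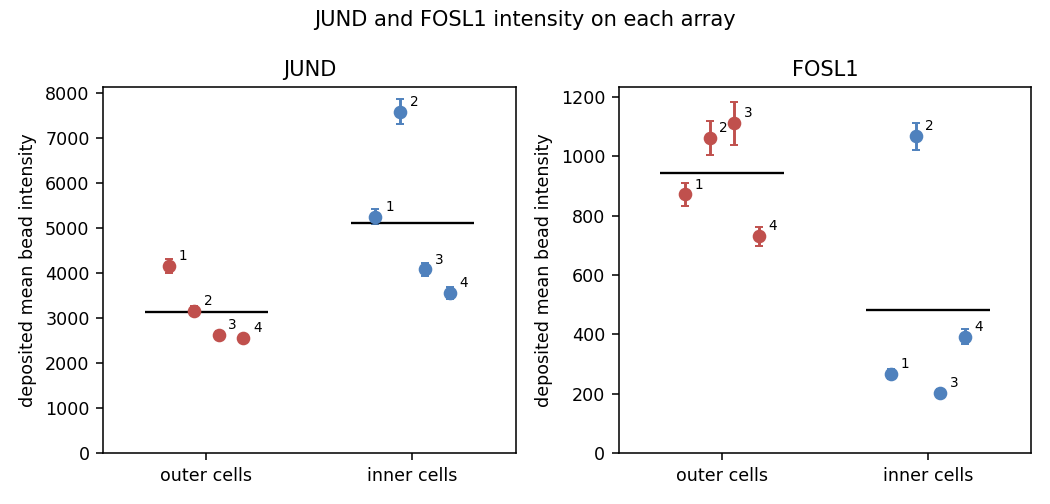
Deposited mean bead intensity (linear axis, arbitrary units) of JUND and FOSL1 on each outer and inner array, numbered by replicate, with bars for the standard error over beads and a line at the group mean (n = 4 each). JUND intensities overlap between the groups before normalization, with outer replicate 1 at 4155 above inner replicates 3 and 4, and FOSL1 in inner replicate 2, at 1068, lies within the outer range while the other inner arrays lie below it.

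Over 20 other ways of processing the arrays or leaving 1 out, the JUND difference lay between -0.86 and -0.59 and the adjusted limma p between 0.463 and 0.828. The groups stayed apart in 19 of these 20, the exception being cyclic loess normalization. This count says little. Other filters, the other variance model, the replicate block and averaged probes left the JUND values as they were, so the outcome was fixed there. Leaving an array out of groups already apart could hardly make them overlap.

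JUN, the partner of FOS in the best studied AP-1 pair, had a different pattern. Its intensity was 38.2, 132.8, 33.3 and 45.0 on the outer arrays, against 47.0, 531.3, 51.3 and 307.8 on the inner arrays. It was above background in outer replicate 2 and inner replicates 2 and 4, at 2.46, 7.13 and 5.24 times the background limit of those arrays, a limit that lay between 51.4 and 77.0 over the arrays. Of all probes 3.45% were above background on exactly 3 arrays. The groups overlapped, and the bright arrays of both groups were several times above the dim ones. In a fit to all probes the difference of JUN was -1.61 with a standard error of 1.06, with a 95% interval of -4.13 to 0.90 (limma, adjusted p = 0.919), and it was -0.26 where the background was estimated from all probes. JUNB, which in many cells restrains the growth-promoting action of JUN, was at 25.3, 27.7, 33.4 and 35.8 in outer cells, against 26.9, 28.5, 20.9 and 29.6 in inner cells. It was not well above background on any array, so these values have no order.

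FOSL1 (also called FRA-1) is a Fos protein without the strong activation domain of FOS, and is known to be made in response to sustained MAP kinase signals in epithelial cells. Its intensity was 872, 1062, 1111 and 731 on the outer arrays, against 266, 1068, 202 and 393 on the inner arrays. The groups overlapped because inner replicate 2, at 1068, was above 3 of the 4 outer arrays. The standard error over beads was 4.26% to 6.73%, so the spread of the inner arrays was far larger than the bead noise.

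On the normalized log2 scale FOSL1 was at 9.51, 10.18, 9.98 and 9.56 in outer cells, against 8.39, 9.72, 7.45 and 8.71 in inner cells. The means were 9.81 ± 0.32 in outer and 8.56 ± 0.94 in inner cells (n = 4 each, SD), a difference of 1.24 (standard error 0.47) with a 95% interval of 0.15 to 2.34, or 2.37-fold higher in outer cells. The unadjusted limma p was 0.0310 and the adjusted p 0.575. By exact two-sided permutation tests of the log2 intensities and of the log2 scaled values, p was 0.114 and 0.0857. The authors' deposited table gives an inner over outer ratio of 0.341. Without inner replicate 2, the only inner array within the outer range, the difference was 1.64 (limma, adjusted p = 0.362). The groups then no longer overlapped, which was fixed by the choice of that array. Without inner replicate 3 the difference was 0.87 (limma, adjusted p = 0.654). Both arrays were singled out after their values were seen, so these fits are a description only. JUND and FOSL1 thus had differences of opposite sign, and their median, 0.26, lies between them and describes neither.

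**Figure D2:**
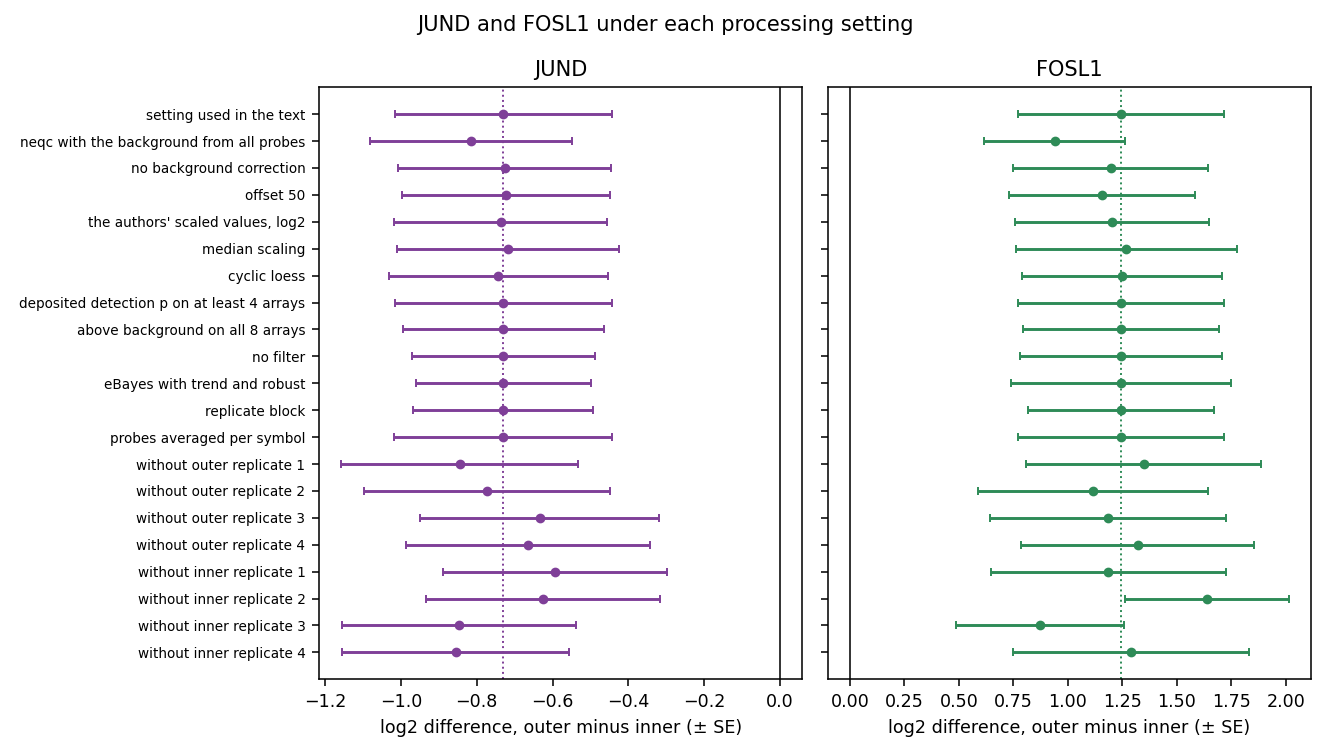
Log2 difference, outer minus inner, of JUND and FOSL1 (points, with the standard error as a bar) in the setting used in the text and in 20 other settings, with the dotted line at the value in the text. All JUND values lie below 0, between -0.86 and -0.59, and all FOSL1 values above 0, between 0.87 and 1.64, the highest and lowest FOSL1 values coming without inner replicate 2 and without inner replicate 3.

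FOS, the founding member of its family and transcribed within minutes of a growth stimulus, was at 72.6, 341.5, 39.4 and 39.0 in outer cells, against 40.6, 66.5, 34.7 and 106.1 in inner cells. It was above background in outer replicate 2 and inner replicate 4, both of them also arrays with JUN above background. The other 3 outer arrays and the other 3 inner arrays were not well above background, so that no difference is given.

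FOSB, another rapidly induced Fos protein, was at 38.7, 34.3, 276.5 and 39.0 in outer cells, against 34.0, 47.7, 32.0 and 32.9 in inner cells. Outer replicate 3 alone was above background, at 4.43 times the limit of that array, and its standard error of 17.4 over 40 beads was small beside this intensity. Of all probes, 7.66% were above background on exactly 1 array, and FOSB was higher above the limit than 83.4% of these 1577 probes, whose median was 1.41 times the limit.

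FOSL2 (also called FRA-2), the Fos protein most like FOSL1 in lacking a strong activation domain, was at 231.7, 52.7, 48.8 and 57.8 in outer cells, against 46.0, 73.4, 63.5 and 50.9 in inner cells. It was above background in outer replicate 1 and in inner replicate 3, and so shared with FOS a count of exactly 2 arrays, seen for 4.28% of all probes. FOS, FOSB and FOSL2 were thus each above background on 1 outer array, a different array for each gene.

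ATF3, a stress-induced factor that often represses its targets, had 2 probes. ILMN_24314 was at 35.5, 51.4, 46.2 and 45.8 in outer cells, against 29.7, 35.1, 26.3 and 24.8 in inner cells. All outer values were above all inner ones, but none was well above background, so no fold is given. ILMN_6468 was at 37.5, 37.0, 31.9 and 47.0 in outer cells, against 42.2, 41.6, 35.4 and 73.7 in inner cells, with inner replicate 4 at 1.25 times the background limit. The deposited detection p of that value was 0.361, one of those off the regular steps, so the 2 criteria differ there and no direction is given for this probe either. BATF, which is best known from lymphocytes, was at 46.5, 36.3, 44.4 and 32.6 in outer cells, against 49.9, 44.4, 32.6 and 29.7 in inner cells, and was not well above background on any array.

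**Figure D3:**
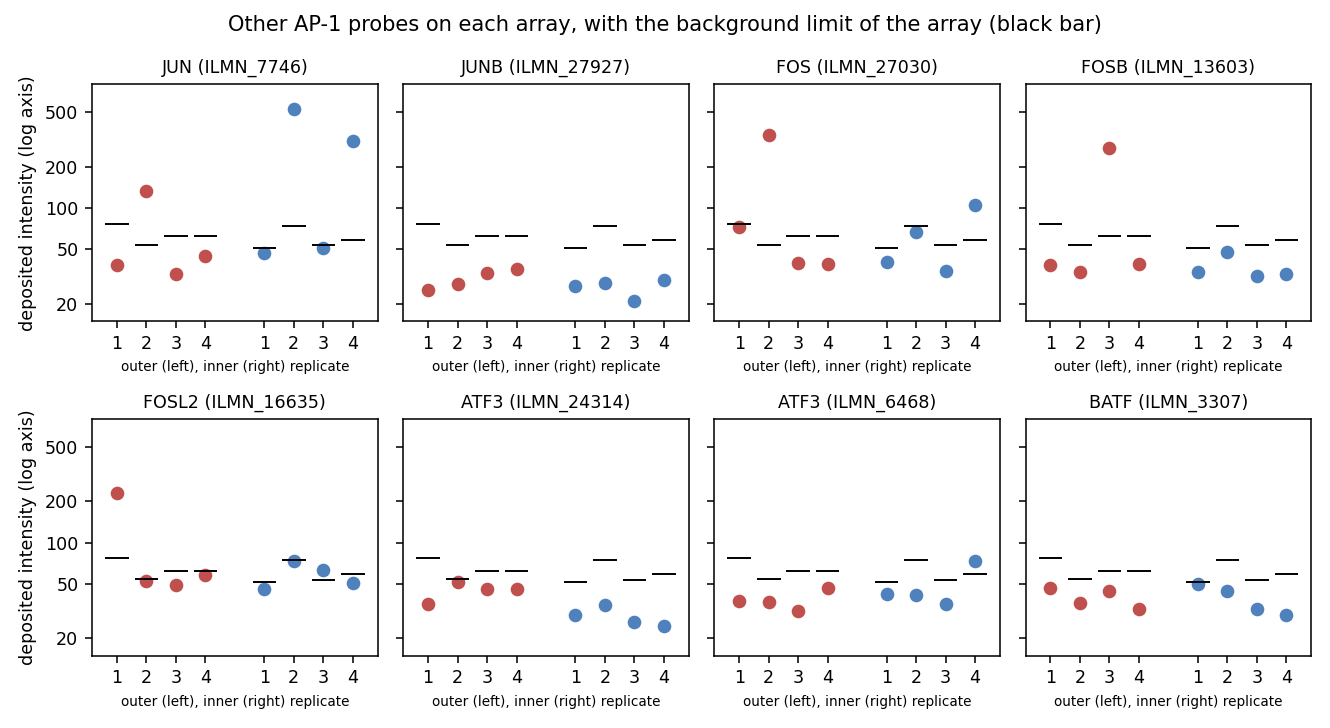
Deposited intensity (log axis, arbitrary units) of the 8 member probes that were above background on 3 or fewer arrays, with outer arrays left and inner arrays right, numbered by replicate, and a black bar at the background limit of each array. JUN stands above the bar on 3 arrays, FOS and FOSL2 on 2 and FOSB on 1, and most other points lie below it.

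Counting genes above background, the outer arrays had 3, 4, 3 and 2 of the 9 members, against 2, 3, 3 and 5 on the inner arrays. The 5 on inner replicate 4 were JUN, FOS and ATF3 beside JUND and FOSL1, or 4 without ATF3, whose deposited detection p differs, and outer replicate 2 had 4 as well. The ranges of the groups overlapped.

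Other bZIP factors can pair with or compete with AP-1 proteins. Of 24 genes listed, 12 were tested, 4 with higher and 8 with lower values in outer cells, and none passed the adjusted threshold (limma; 1 had an unadjusted p below 0.05). The median difference was -0.06, against 0.01 over all probes tested. That 1 gene was CEBPD, a C/EBP factor linked to growth arrest of mammary epithelial cells. Its intensity was 574.3, 767.7, 581.3 and 521.0 in outer cells, against 765.2, 1528, 1126 and 1249 in inner cells. Before normalization the groups overlapped, with outer replicate 2 just above inner replicate 1. Normalized, every outer array lay below every inner array, as for 2.63% of tested probes in this direction. The log2 difference was -0.996 (standard error 0.26; limma, adjusted p = 0.387). NFE2L1, a stress-response factor, differed by -1.33 on the log2 scale, with groups that overlapped (limma, adjusted p = 0.636). Of the genes not tested, JDP2, BATF2, BATF3 and ATF2, which can pair with Jun proteins, were above background on no array.

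The MAP kinases and other kinases that control AP-1 proteins were evenly divided. Of 26 listed genes 25 had a probe and 14 were tested, 7 with higher and 7 with lower values in outer cells, with a median difference of 0.01. None had an adjusted or an unadjusted limma p below 0.05. The lowest p-values were those of MAP3K4, a stress kinase upstream of p38 and JNK (difference 0.62; limma, adjusted p = 0.741), RPS6KA5, a nuclear kinase downstream of ERK and p38 (difference -1.41, or -0.16 with the background from all probes; limma, adjusted p = 0.782), and CSNK2A1, a catalytic subunit of casein kinase 2 (difference -0.45, or -0.27 with that background; limma, adjusted p = 0.836). MAPK8, which encodes the kinase JNK1, was above background on no array. The other JNK genes were seen, MAPK9 above background on 3 outer and 4 inner arrays, and MAPK10 on 2 outer and 0 inner arrays.

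Of 21 binding partners and regulators of AP-1 proteins, 12 were tested, 7 with higher and 5 with lower values in outer cells, with a median difference of 0.16. None passed the adjusted limma threshold, and 1 had an unadjusted limma p below 0.05. HDAC3, a histone deacetylase found in co-repressor complexes, and COP1, a ubiquitin ligase for JUN, differed by 0.64 and 0.75 (limma, adjusted p = 0.632 and 0.658). MEN1, which encodes menin, a protein that binds JUND and represses its activity, was above background on no array with either of its probes.

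Other immediate-early genes are those that, like FOS and JUN, are transcribed soon after a stimulus. Of 30 listed genes 29 had a probe and 16 were tested, 7 with higher and 9 with lower values in outer cells, with a median difference of -0.15. GADD45A, a growth-arrest and DNA-damage response gene, was the 1 gene of this list past the adjusted limma threshold. The share of all tested probes called higher in outer cells was 0.0141%. Its intensity was 303.1, 117.4, 289.0 and 176.7 in outer cells, against 31.5, 53.0, 24.8 and 24.1 in inner cells, where it was not well above background on any array. With the background estimate used in the text, outer cells had at least 4.38-fold more signal. This takes the inner arrays at the higher of their own signal and the lowest signal above background. The measured log2 means were 7.55 in outer and 4.52 in inner cells (limma, adjusted p = 0.0204). GADD45A reached the 4 arrays that a test required only through the outer group, where it is high, so the call is not independent of the filter. This call was lost in 12 of the 15 other settings that tested the gene, and the fitted difference of 3.03 was 0.29 with the background from all probes.

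BTG2, an antiproliferative gene induced by growth factors and p53, was at 163.3, 82.1, 48.0 and 63.4 in outer cells, against 402.5, 570.6, 591.6 and 167.2 in inner cells. The normalized groups did not overlap, as for 2.63% of tested probes in this direction. The difference of -2.64 is taken partly against background, since 3 of 4 outer arrays were above it (limma, adjusted p = 0.258). It was -0.63 with the background from all probes. CCN1, a matrix protein gene and AP-1 target, was above background on 4 outer and 1 inner arrays, with a difference of 1.18 (limma, adjusted p = 0.541), or 0.07 with the background from all probes. Among the classic members of the list, EGR1, DUSP1 and MYC were above background on all 8 arrays and differed by -0.40, -0.14 and -0.46 (limma, adjusted p = 0.933, 0.920 and 0.862). They were named after their values were seen.

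Known AP-1 targets in epithelium numbered 31, of which 16 were tested, 11 with higher and 5 with lower values in outer cells. Their median difference was 0.21, and none had an adjusted or an unadjusted limma p below 0.05. LAMA3, the alpha chain of the basement membrane protein laminin-332, was at 12.46 ± 0.15 in outer and 11.99 ± 0.22 in inner cells (log2, SD, n = 4 each), with groups that did not overlap, as for 2.67% of tested probes in this direction (difference 0.46; limma, adjusted p = 0.639). SPRR1B, a cornified envelope protein, had lower normalized values in every outer array than in any inner array, as for 2.63% of tested probes in this direction. Its difference was -0.35 (limma, adjusted p = 0.719). CCND1, cyclin D1, differed by 0.86 with overlapping groups (limma, adjusted p = 0.705), or by 0.35 with the background from all probes. The matrix metalloproteinases MMP1, MMP3, MMP10 and MMP13, which AP-1 is known to drive, were above background on no array, and MMP9 was on 1 outer and 0 inner arrays. In all, 14 of the 31 targets were above background on no array, a state seen for 50.2% of all probes.

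**Figure D4:**
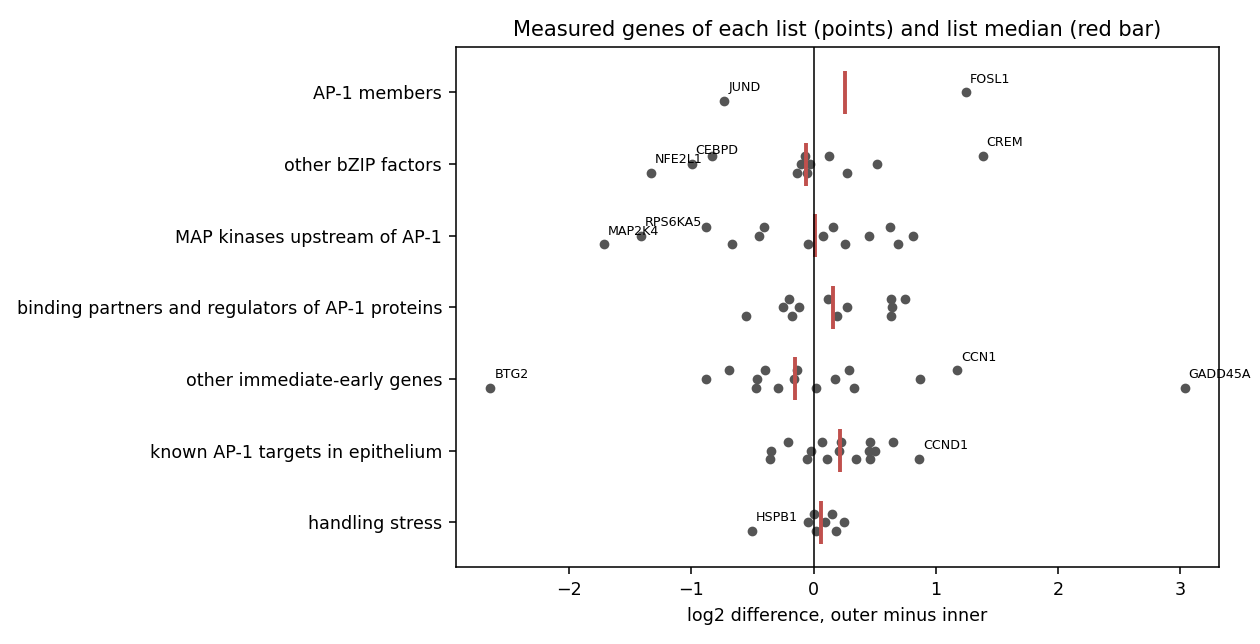
Log2 difference, outer minus inner, of the tested genes of each list (points, spread vertically for sight) with the list median as a red bar, and with selected genes named. GADD45A, at 3.03, and BTG2, at -2.64, lie farthest from 0, while the medians of the lists drawn lie between -0.15 and 0.26, against 0.01 over all tested probes.

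Tissue handling can itself induce AP-1 genes, so a list of heat shock and co-chaperone genes was examined beside them. Of 9 genes 8 were tested, 6 with higher and 2 with lower values in outer cells, with a median difference of 0.06. Their summed intensity was 27440 to 30436 on outer arrays and 21363 to 34446 on inner arrays. HSPB1, a small heat shock protein, had lower normalized values in every outer array than in any inner array, as for 2.63% of tested probes in this direction. Its difference was -0.50 (limma, adjusted p = 0.579), while HSP90AA1 and HSPH1 differed by 0.25 and 0.19 (limma, adjusted p = 0.824 and 0.890). The part of handling in the AP-1 values was not tested.

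Markers of other cell types were examined as well. Fibroblast markers had 3 of 10 tested, none called, with 5 at background on all arrays, and a summed intensity of 2390 to 6200 on outer and 1560 to 5321 on inner arrays. DCN (decorin) was above background on all 8 arrays, FAP on 3 outer and 3 inner arrays, and COL1A2 on 4 outer and 2 inner arrays. These 3 tested markers had higher means in outer cells, with a median difference of 0.34. Leukocyte markers had 2 of 8 tested, CD68 and CSF1R, neither called, with a summed intensity of 438.6 to 705.6 on outer and 378.1 to 1374 on inner arrays, and the defining markers PTPRC and CD3E were above background on 1 and 0 arrays and CD14 on 3, all inner. Adipocyte markers had 0 of 4 tested and a summed intensity of 150.0 to 170.6 on outer and 136.8 to 208.3 on inner arrays. The summed ranges of the groups overlapped for each of these lists.

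JUND, the TGF-beta co-receptor TGFBR3 and the basal keratin KRT5 are known to have been linked in studies of single-cell variation among matrix-attached MCF10A-5E cells, so both genes were set beside JUND. TGFBR3 (probe ILMN_22620) was at 43.5, 52.2, 32.8 and 1104 in outer cells, against 574.6, 657.0, 521.4 and 418.6 in inner cells. It was not well above background on 3 of the 4 outer arrays and was above it on all inner arrays, and outer replicate 4 was the brightest array of all 8. Its log2 difference of -2.93 (standard error 1.21; limma, adjusted p = 0.620) is taken largely against background, and was -0.42 with the background from all probes. Without outer replicate 4 no outer array was above background, and TGFBR3 was at least 12.3-fold lower in outer cells. This takes the outer arrays at the higher of their own signal and the lowest signal above background. The measured log2 means were then 4.81 in outer and 9.08 in inner cells (limma, adjusted p = 0.0188). Outer replicate 4 was singled out after its value was seen. Without it the probe passed the filter only through the inner arrays, so this bound and p are a description and no support for a difference. JUND was not apart from the other outer arrays on outer replicate 4, at 11.37 within an outer range of 11.27 to 11.88.

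KRT5 was at 2083, 1746, 1947 and 1912 in outer cells, against 1452, 2007, 1643 and 1670 in inner cells. The groups overlapped, and the normalized difference was 0.12 with a 95% interval of -0.31 to 0.56 (limma, adjusted p = 0.922).

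**Figure D5:**
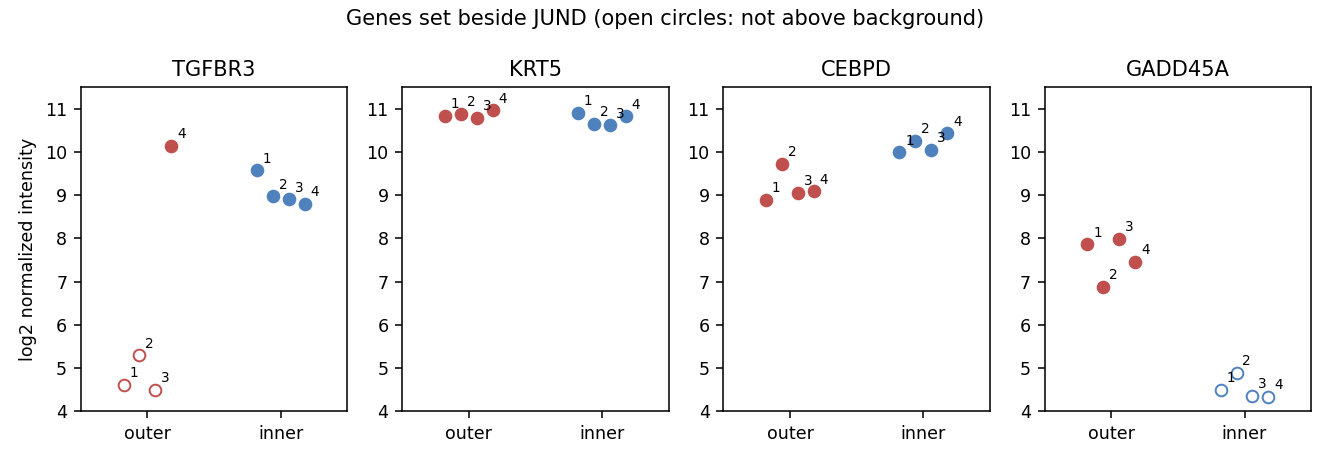
Log2 normalized intensity of TGFBR3, KRT5, CEBPD and GADD45A on each outer and inner array, numbered by replicate, with open circles for arrays not above background. TGFBR3 has 3 outer arrays at background and 1 at 10.14, KRT5 overlaps between the groups, the CEBPD groups do not overlap, and GADD45A is at background on all 4 inner arrays.

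The 5 tested genes whose log2 values over the 8 arrays correlated best with those of JUND were ESF1 (r = 0.963), BCKDK (0.954), OR6F1 (0.927), MGC15763 (0.925) and SAT2 (0.923), all Pearson's r and given as a description, since they were picked as the highest of 7078 and the 8 points share the arrays and their depth. ESF1, a nucleolar protein listed under its older symbol C20orf6, was at 4.77 ± 0.53 in outer and 6.79 ± 0.97 in inner cells, and was above background on 1 outer and 4 inner arrays. BCKDK, the kinase of the branched-chain ketoacid dehydrogenase, was at 6.74 ± 0.17 in outer and 7.71 ± 0.37 in inner cells (both log2, SD, n = 4 each). OR6F1 and MGC15763 were also above background on 1 outer and 4 inner arrays, and OR6F1 reached an intensity of only 92.3. The log2 differences of ESF1, BCKDK, OR6F1 and MGC15763 were -2.02, -0.96, -0.45 and -3.63. With the background from all probes they were -0.17, -0.18, -0.02 and -1.03. That of SAT2 was -0.65, or -0.84 with that background. None of the 5 passed the adjusted limma threshold, with adjusted p between 0.268 and 0.682.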

How the data were processed

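Per the labels, about 50 microdissected outer or inner cells per sample were profiled after poly(A) PCR on 1-colour Illumina arrays, and samples were grouped by title. The authors deposited mean bead intensity per probe, neither background-subtracted nor normalized, with its bead error and bead number, per the file headers. The deposited detection p-value was a whole multiple of 1 in 708 on all arrays (tolerance 0.001) for 92.53% of probes. The authors' scaled values are the ratio of intensity to array mean, and their inner over outer ratio is that of group medians, as recomputed here. Scanning software is not given in the sources used here.

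Of the 1537 probes with detection p off these steps, 1532 had fractional bead numbers, against 50 of 19052 others. Background was therefore estimated from the others (normexp by detection p, offset 16), followed by quantile normalization and log2, in limma 3.58.1 and R 4.3.3. This gave background SDs of 6.24 to 11.7 per array, against 262 to 391 from all probes. A probe was above background where its intensity reached the lowest among on-step probes with detection p below 0.01, and was tested where this held on at least 4 of 8 arrays. A probe that lacked beads on some array was not used. The fit of outer minus inner used lmFit and eBayes with no term but the group, and Benjamini-Hochberg adjustment over 7078 probes at 0.05. The fit was tested on simulated arrays. Single values were compared by exact permutation.

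The members, gene lists and settings were chosen with earlier results of these data known. Named were all member probes, the 3 tested genes with the smallest p of each list, the 5 best correlated with JUND, TGFBR3, KRT5 and MEN1. Results for some genes that this rule takes are not reported here. Other genes are named as examples, chosen after their values were seen. Gene symbols and coordinates follow RefSeq (GRCh38.p14). Same-numbered outer and inner samples correlated by -0.01 to 0.03 in their deviations from the group means. Such low correlations cannot decide whether the numbers pair the samples, so the main fit has no pairing and a replicate block is an alternative. Alternatives were other background corrections, scalings, filters and variance models, averaged probes, a replicate block and leaving out each array.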

Additional observations from a re-analysis of the deposited data

Results flagged for a closer look

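In 5 of the 28 groups of 4 arrays examined, 1 array stood far from the other 3. The rule takes chance to give about 1 in 20. That rate is no fair comparison where the other 3 arrays lie at background, as for JUN, FOSB, FOSL2 and TGFBR3 below. Their values are pressed together there, so any 1 array above background stands apart, and no excess over chance is claimed. Of the 5 groups, 3 were among the 20 groups of member probes. JUN in outer replicate 2 was at 7.09 (log2), against 4.50 to 4.84 on the other outer arrays. FOSB in outer replicate 3 was at 7.94, against 4.51 to 4.61. FOSL2 in outer replicate 1 was at 7.44, against 5.02 to 5.41. The array apart was thus a different one for each of these 3 genes. TGFBR3 in outer replicate 4 was at 10.14, against 4.50 to 5.30. Inner replicate 3 had 7367 probes above background, against 6905 to 6963 on the other inner arrays.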

How the results depend on the processing

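JUND and FOSL1 kept their direction and stayed outside the adjusted threshold in every alternative fit. Other filters, the other variance model, the replicate block and averaged probes left both differences as they were, so the direction was fixed there. Leaving out 1 array could hardly reverse JUND, whose groups were already apart. The median of the measured member probes stayed above 0, between 0.01 and 0.51. The number of probes past the adjusted limma threshold was 4 and depended on the setting. It was 1 with the background from all probes, 2 with an offset of 50, 2 without a filter, and 0 with probes above background on all 8 arrays (392 with an unadjusted limma p below 0.05). Leaving out 1 array gave 0 to 7 probes, with 7 without outer replicate 4, and 0 without inner replicate 1 (539 with an unadjusted limma p below 0.05). With the replicate number as a block the count was 0 (557 with an unadjusted limma p below 0.05), and the adjusted limma p was 0.611 for JUND and 0.623 for FOSL1. Outer replicates 1 to 3 correlated best with the inner sample of their own number and outer replicate 4 with inner replicate 2. GADD45A kept its call with cyclic loess, with the deposited detection p as the filter and with averaged probes, and its adjusted limma p over the settings lay between 0.0194 and 0.447. In the leave-one-out fits without an outer array it was above background on too few arrays to be tested. The causes were not tested. A BeadChip block could not be fitted, since the columns do not name chips. For the 8 dim member probes the signal over background is the limit.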
